A study of Homo sapiens with 20 samples.

Results

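Calcineurin and the nuclear factor of activated T cells (NFAT) family were followed here at the mRNA level: the calcineurin subunit genes PPP3CA, PPP3CB, PPP3CC and PPP3R1, the transcription factor genes NFATC1, NFATC2, NFATC3, NFATC4 and NFAT5, and RCAN1, a gene for a calcineurin inhibitor. Every probe set (a group of oligonucleotides on the array that reads 1 transcript) annotated to exactly 1 of these 10 genes was taken, which gave 33 of the 38070 probe sets that name a single gene. Of the 33, 19 had a mean above 4.5 on the log2 scale in at least 1 group of arrays and were tested, together with all other probe sets passing this filter (18639 in all). The other 14 did not reach it: all 4 of NFATC2, 3 of PPP3CC, 2 each of NFATC4 and NFAT5, and 1 each of NFATC1, NFATC3 and RCAN1. Total RNA of human embryonic kidney HEK293 cells (Flp-In T-REx, a line built for doxycycline-inducible transgenes) was hybridized to 20 Affymetrix U133 Plus 2.0 arrays. Doxycycline-induced cells of the EGFP-ZFP36 line (5 arrays) carry a transgene for ZFP36, an RNA-binding protein that promotes mRNA decay, fused to green fluorescent protein, and received 1 µg/ml doxycycline for 16 h. Mock-induced cells of the same line (5 arrays) received no doxycycline. Parental cells without the transgene were given 1 µg/ml doxycycline for 16 h (5 arrays) or vehicle (5 arrays). Per the study's methods, induced cells were sorted for green fluorescence, whereas the mock-induced sort left fluorescent cells out, and the doxycycline flasks were less confluent, with more rounded and floating cells. Gate, density and fusion protein therefore differ together between induced and mock-induced arrays and cannot be told apart. In RNA from whole cell populations, fewer cells of a type and less RNA per cell cannot be told apart either.

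Calcineurin is a phosphatase switched on by calcium and calmodulin. PPP3CA, PPP3CB and PPP3CC encode alternative catalytic subunits, and PPP3R1 encodes the calcium-binding regulatory subunit that joins them. The enzyme removes phosphates from NFATC1 to NFATC4, which then enter the nucleus, while kinases of the GSK3, DYRK and casein kinase families drive their export. NFAT5 lacks the calcineurin docking region and is known for the response to high salt. RCAN1 binds and inhibits calcineurin and is itself an NFAT target in many cell types. The pathway is best known from T cells, where ciclosporin and FK506 block it, and its members are also made in kidney cells.

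ZFP36 binds AU-rich stretches in mRNAs, so the sites listed for these genes in the study's table of ZFP36 crosslinking sites are shown first. The table came from cells with a FLAG/HA-tagged ZFP36, a different line from that on the arrays, and only part of it was used here, so a gene without a site below may have one in the rest. In this part, 1 of the 10 genes was found to have a site: RCAN1, in its 3′ UTR. Some sites were left out of this search for genes, among them any in PPP3CC. Whether PPP3CC has a site was therefore not tested. The capitals mark TATT, the core of the ZFP36 recognition sequence, and ATTTA, the AU-rich pentamer. Both were searched on the strand that the table prints, and the 2 motifs can overlap. Among NFAT kinases the 3′ UTR sites of DYRK1A, CSNK1E and GSK3B are shown because these genes are followed below, as are MEF2C, a partner factor of NFAT, and HSPA1B, a heat shock protein gene of the NFAT5 salt response.
RCAN1 (hg19 chr21:35888822-35888849, minus strand): ctaacctcaaaaTATTttttttaactg
DYRK1A (hg19 chr21:38886082-38886105, plus strand): aattttacaaaaATTTATTttct
CSNK1E (hg19 chr22:38686889-38686912, minus strand): ttttcctaATTTATTTAcctctg
GSK3B (hg19 chr3:119545108-119545131, minus strand): aaaattaatccatatcttcgggt
MEF2C (hg19 chr5:88017396-88017419, minus strand): ctttctaatatatataaTATTat
HSPA1B (hg19 chr6:31797786-31797809, plus strand): taattagctggcttcatTATTtt
The RCAN1 site holds 1 TATT and 0 ATTTA. CSNK1E holds 2 overlapping ATTTA, and GSK3B neither motif. Of the 1026 sites of 3′ UTRs in the part used, 77.9% hold TATT and 42.5% hold ATTTA, so these matches are common among the sites. Positions are as the table gives them. They span exactly the length of each sequence, and the table does not say whether they count from 0 or 1.

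The poly-A spike-in transcripts averaged 8.80 ± 0.24 on induced arrays and 8.43 ± 0.18 on mock-induced arrays (mean ± SD, n = 5 each), and on the parental arrays 8.75 ± 0.26 with doxycycline and 8.39 ± 0.63 with vehicle. The excess of 3′ over 5′ actin signal, a sign of degraded RNA, averaged 1.31 ± 0.13 for induced samples and 1.52 ± 0.14 for mock-induced samples. The median of the log2 differences of all tested probe sets was 0.12 for induced minus mock-induced cells, and 0.0028 for parental doxycycline minus vehicle cells. Across the tested probe sets, 21.8% were lower and 22.1% were higher in induced than in mock-induced cells at the threshold used throughout, a Bonferroni-adjusted p under 0.01 in limma. The counts below are read against these shares. All 11 markers of T cells, B cells and myeloid cells that had a probe set were under the filter, and their levels summed to 24.05 to 24.12 in induced, 24.05 to 24.15 in mock-induced, 24.06 to 25.06 in parental doxycycline and 24.05 to 24.96 in parental vehicle arrays. The defining markers CD3D and CD3E of T cells and CD14 of monocytes had group means at or next to the lowest value on the arrays, 2.19. Of the embryonic kidney and HEK293 markers, 6 of 7 with a probe set passed the filter. WT1, a kidney transcription factor, read 7.35 ± 0.17 and 8.81 ± 0.10 in induced and mock-induced cells, and 8.81 and 8.87 in parental cells with doxycycline and vehicle. The 2 lines differed widely in others of these markers. NEFM, a neurofilament gene, averaged 3.87 in mock-induced and 12.27 in parental vehicle cells (−8.40, limma, adjusted p = 7.39e-11). EYA1, a kidney factor, averaged 5.50 and 7.05 in these groups (−1.55, limma, adjusted p = 2.34e-06), and INA, a neuronal filament gene, 9.52 and 7.40 (2.12, limma, adjusted p = 2.94e-06). These line differences lie beside every result that sets the EGFP-ZFP36 line against parental cells, and their part in it was not tested. LHX1, another kidney factor, lay under the filter in every group.

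After induction PPP3CA, PPP3CB and 1 of 2 probe sets of PPP3R1 fell, 1 of 5 probe sets of NFATC3 rose, and PPP3CC, NFATC1, NFATC4, NFAT5 and RCAN1 did not pass the test. Among the 8 tested probe sets of the subunits, 5 fell, 0 rose and 3 did not pass, with a median log2 difference of −1.22 against 0.12 over all probe sets. PPP3CA and PPP3CB, the broadly expressed catalytic subunits, fell on both of their probe sets. Of the 9 NFAT probe sets, 1 rose (NFATC3), 0 fell and 8 did not pass, with a median of 0.75. RCAN1 did not pass on either of its 2 probe sets. Over all 19 probe sets, 5 fell and 1 rose, where 21.8% and 22.1% of all tested probe sets did. At a Benjamini-Hochberg adjusted p under 0.05, 9 members were lower and 9 higher, and here the background was 38.9% lower and 46.5% higher. The induced and mock-induced arrays overlapped for 1 of the 19, NFATC4. Groups did not overlap for 76.9% of all tested probe sets, so separation alone does not set the members apart. The scaling moves this balance. With arrays centred on the poly-A controls, 9 member probe sets fell and 1 rose, which was NFATC1 211105_s_at and not NFATC3. The median log2 difference of all probe sets was then −0.24. Of all 18639 tested probe sets, 8206 passed either way with this centring and 8198 without it. They were not counted by direction with this centring, so its member counts cannot be read against shares lower and higher.

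PPP3CA encodes the alpha catalytic subunit. Its probe set 202457_s_at read 8.42, 8.49, 8.37, 8.51 and 8.38 in the induced arrays, against 10.40, 10.28, 10.24, 10.38 and 10.32 in the mock-induced arrays. The 2 groups lay nearly 2 log2 units apart, with little spread inside either. The difference was −1.89 (SE 0.05), a 3.70-fold lower level (95% interval 3.42 to 4.01, limma, Bonferroni-adjusted p = 3.02e-08). The second probe set, 202429_s_at, read 8.52, 8.30, 8.37, 8.23 and 8.20 in induced and 10.63, 10.56, 10.57, 10.58 and 10.50 in mock-induced arrays, a difference of −2.24 (SE 0.07, limma, adjusted p = 5.79e-08). Parental cells averaged 10.75 ± 0.07 with doxycycline and 10.72 ± 0.09 with vehicle on the first probe set, and 10.60 ± 0.03 and 10.62 ± 0.05 on the second. Induced cells were therefore the lowest of the 4 groups on both, with no overlap with any other group. The order of the other groups was not separable throughout: the parental groups overlapped on both probe sets, and on the second the mock-induced arrays overlapped those of parental doxycycline cells.

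PPP3CB, the beta catalytic subunit, had 2 probe sets that fell by very different amounts. On 209817_at the induced arrays read 7.78, 7.67, 8.11, 7.87 and 7.70, against 10.29, 10.34, 10.41, 10.41 and 10.42 in mock-induced arrays. All induced arrays lay more than 2 log2 units under the mock-induced ones, a difference of −2.55 (SE 0.08), or 5.85-fold lower (95% interval 5.16 to 6.64, limma, adjusted p = 1.67e-07). On 202432_at the induced arrays read 10.31, 10.30, 10.32, 10.32 and 10.23, and the mock-induced arrays 11.22, 11.20, 11.23, 11.21 and 11.18. This probe set had the smallest SD of the tested members in mock-induced arrays (0.0176), and its difference was −0.91 (SE 0.04, limma, adjusted p = 5.38e-06), or 1.88-fold. Parental cells with doxycycline and vehicle averaged 10.43 ± 0.04 and 10.50 ± 0.04 there, nearer to the induced mean of 10.30 than to the mock-induced mean of 11.21. The induced arrays (10.23 to 10.32) lay under those of parental doxycycline cells (10.40 to 10.49) without overlap. On 209817_at parental cells with doxycycline and vehicle averaged 10.27 ± 0.15 and 10.35 ± 0.08, next to the mock-induced mean of 10.38. With a separate spread for each group, 209817_at no longer passed (adjusted p = 0.0168), while 202432_at did.

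PPP3R1, the regulatory subunit, fell on 204507_s_at. Its induced arrays read 7.93, 8.18, 7.89, 7.65 and 7.67, against 9.28, 9.16, 9.07, 9.40 and 9.33 in mock-induced arrays, a difference of −1.38 (SE 0.11, limma, adjusted p = 0.00126), 2.61-fold lower. The call was lost without mock-induced replicate 1 (−1.38, adjusted p = 0.0102, against 0.01), without the filter on low values (adjusted p = 0.0419) and with a separate spread for each group (adjusted p = 0.179). The brighter probe set 204506_at read 8.29 ± 0.10 in induced cells, against 9.18 ± 0.18 in mock-induced cells, which did not pass (−0.89, SE 0.09, limma, adjusted p = 0.0162). It passed when only the brightest probe set of each gene was tested (adjusted p = 0.00710), or with a group mean above 6 as the filter (0.00846). In parental cells the 2 probe sets averaged 9.89 and 9.81 with doxycycline, and 9.73 and 9.54 with vehicle. The induced arrays lay under those of each other group on both, while mock-induced and parental vehicle arrays overlapped.

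PPP3CC encodes the gamma catalytic subunit, known mainly from testis and from immune cells. Of its 5 probe sets, 2 were above the filter, and the other 3 reached at most 2.31 on any array. On 32541_at the induced arrays read 7.78, 7.75, 7.87, 7.40 and 7.92, against 8.55, 8.58, 8.76, 8.64 and 8.85 in mock-induced arrays (difference −0.93, SE 0.10, limma, adjusted p = 0.0364). On 207000_s_at the means were 6.51 ± 0.26 and 7.57 ± 0.22 (difference −1.06, SE 0.14, limma, adjusted p = 0.216). Neither passed, although the groups did not overlap on either. Both passed with poly-A centring (−1.29 and −1.42, adjusted p = 9.54e-09 and 4.31e-11). There 207000_s_at had the smaller p despite its larger SE above. Centring brings the spread of the controls between arrays into every probe set, so these p-values do not measure the spread of PPP3CC alone. 32541_at passed with a common spread over all 20 arrays (adjusted p = 0.000671), and 207000_s_at with hybridization centring (−1.17, adjusted p = 0.00856). Parental cells with doxycycline and vehicle averaged 7.25 and 7.42 on the first and 6.25 and 6.14 on the second. Here the mock-induced arrays were the highest of the 4 groups on both probe sets, and the induced arrays overlapped with a parental group.

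**Figure D1:**
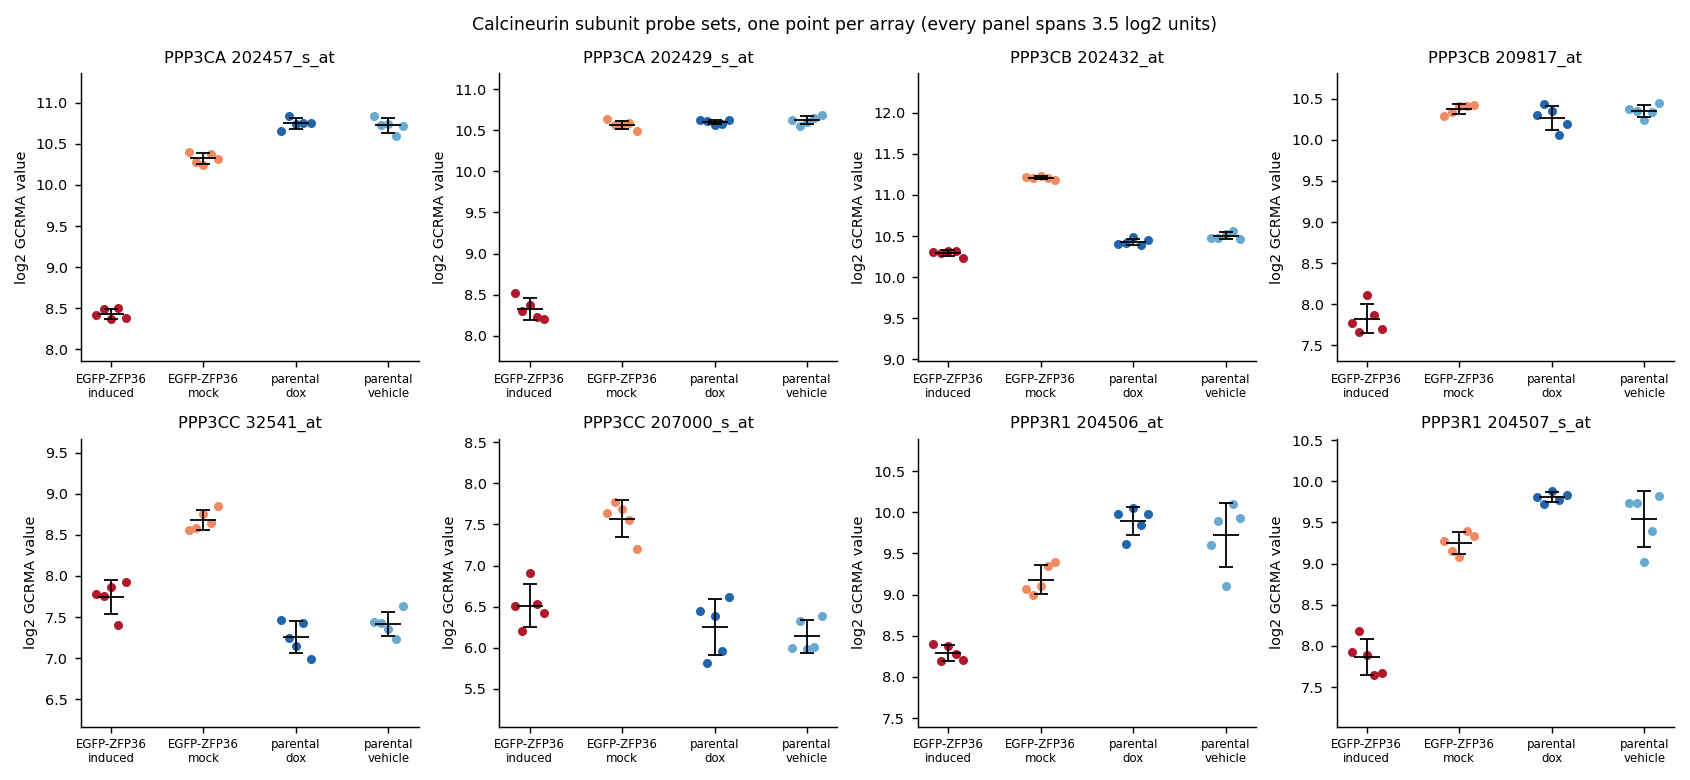
Log2 GCRMA values (y axis) of the 8 tested calcineurin subunit probe sets by group (x axis: the EGFP-ZFP36 line induced or mock-induced, and the parental line with doxycycline, dox, or vehicle); points are arrays, bars are mean ± SD (n = 5), and every panel spans the same range. Induced arrays are the lowest of the 4 groups for PPP3CA, PPP3CB and PPP3R1, whereas for PPP3CC and for PPP3CB 202432_at the mock-induced arrays stand above the other groups.

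NFATC3, an NFAT factor made in many tissues, was the member read by most probe sets, 5 of 6 above the filter. On 210555_s_at the induced arrays read 9.90, 10.06, 9.69, 9.96 and 9.93, against 9.06, 8.96, 8.92, 9.04 and 8.82 in mock-induced arrays. This probe set rose by 0.95 (SE 0.07, limma, adjusted p = 0.00184), 1.93-fold (95% interval 1.72 to 2.16). The other 4 differed by 0.59 (225139_at, adjusted p = 0.0552), 0.75 (225141_at, 0.0428), 0.93 (225137_at, 0.0128) and 0.69 (207416_s_at, 0.490) in limma and did not pass. The induced arrays lay above the mock-induced ones without overlap on all 5. The single call was lost in 5 of 10 fits with an array left out: without induced replicate 1 (0.95, adjusted p = 0.0128), 4 (0.93, 0.0132) or 5 (0.94, 0.0132), and without mock-induced replicate 2 (0.94, 0.0145) or 3 (0.93, 0.0148). It was also lost with poly-A centring (0.58, adjusted p = 1), without the filter (adjusted p = 0.0307) and with a separate spread for each group (adjusted p = 0.0635). Parental means lay between the induced and mock-induced means on 4 of the 5 probe sets. On 225137_at they were 7.65 ± 0.37 with doxycycline and 7.41 ± 0.44 with vehicle, both above the induced mean of 7.38.

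NFATC1, which can induce its own transcription in lymphocytes, had the largest differences among the NFAT probe sets, and neither of its tested probe sets passed. On 211105_s_at the induced arrays read 7.39, 6.97, 7.03, 7.54 and 7.03, against 6.09, 5.45, 5.44, 6.11 and 5.40 in mock-induced arrays. Each induced array lay above all mock-induced ones. The difference was 1.49 (SE 0.18, limma, adjusted p = 0.0984), 2.82-fold with a 95% interval of 2.14 to 3.70. On 210162_s_at the means were 6.80 ± 0.23 and 5.63 ± 0.28, a difference of 1.17 (SE 0.15, limma, adjusted p = 0.143). Averaging all 3 probe sets of the gene gave 0.91 and a call (adjusted p = 0.00865), and a common spread over all 20 arrays gave calls for both probe sets (adjusted p = 0.000617 and 0.000576). With poly-A centring 211105_s_at passed too (1.13, adjusted p = 4.72e-06), though the spread of the controls enters that p-value. Parental cells with doxycycline and vehicle averaged 6.42 and 6.29 on the first and 5.39 and 5.35 on the second. Induced arrays were the highest of the 4 groups on both, with no overlap.

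NFATC2, the NFAT of resting T cells, was not tested. Its highest group mean was on 226991_at, 4.34 after induction and 3.10 in mock-induced cells, and 2.35 and 2.34 in parental cells with doxycycline and vehicle. Of its arrays, 3 of the 5 induced ones were above 4.5 (4.59, 4.81 and 5.03) and none of the other groups. NFATC4, known from heart and brain, read 6.12, 5.74, 5.91, 6.23 and 6.12 in induced and 5.37, 5.52, 5.84, 6.12 and 5.67 in mock-induced arrays. These groups overlapped, the difference of 0.32 (SE 0.14, limma, adjusted p = 1) did not pass, and it turned to −0.04 with poly-A centring. Parental cells averaged 6.46 ± 0.37 with doxycycline and 6.53 ± 0.42 with vehicle.

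NFAT5, the calcineurin-independent member, was the only NFAT gene with a lower mean in induced cells on its tested probe set. On 224984_at the induced arrays read 9.07, 9.37, 9.07, 9.30 and 9.33, against 9.91, 10.03, 9.97, 10.12 and 9.94 in mock-induced arrays. The difference of −0.77 (SE 0.07, limma, adjusted p = 0.0148) did not pass over all probe sets. It did with the brightest probe set of each gene as the unit (adjusted p = 0.00608) or a group mean above 6 as the filter (0.00812). It did not without the filter (adjusted p = 0.163), nor did the mean of all 3 probe sets of the gene (−0.26). Of those under the filter, 208003_s_at averaged 4.43 in induced and 4.40 in mock-induced arrays. Parental cells averaged 9.77 ± 0.17 with doxycycline and 9.76 ± 0.13 with vehicle, with no overlap with the induced arrays.

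RCAN1, whose product restrains calcineurin and whose 3′ UTR holds the ZFP36 site printed above, differed by less than most members. On 208370_s_at the induced arrays read 11.62, 11.50, 11.42, 11.51 and 11.45, against 11.09, 11.09, 11.03, 11.07 and 10.98 in mock-induced arrays. The groups did not overlap, and the difference of 0.45 (SE 0.05, limma, adjusted p = 0.0688) did not pass. It was 0.33 with centring on hybridization controls and 0.09 on poly-A controls. On the dimmer 215253_s_at the means were 6.58 ± 0.41 and 5.81 ± 0.22, a difference of 0.77 (SE 0.18, limma, adjusted p = 1). Parental cells averaged 10.78 ± 0.08 with doxycycline and 10.75 ± 0.12 with vehicle on the first, below mock-induced cells. On the second they averaged 6.22 ± 0.59 and 6.41 ± 0.52, overlapping the induced arrays.

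**Figure D2:**
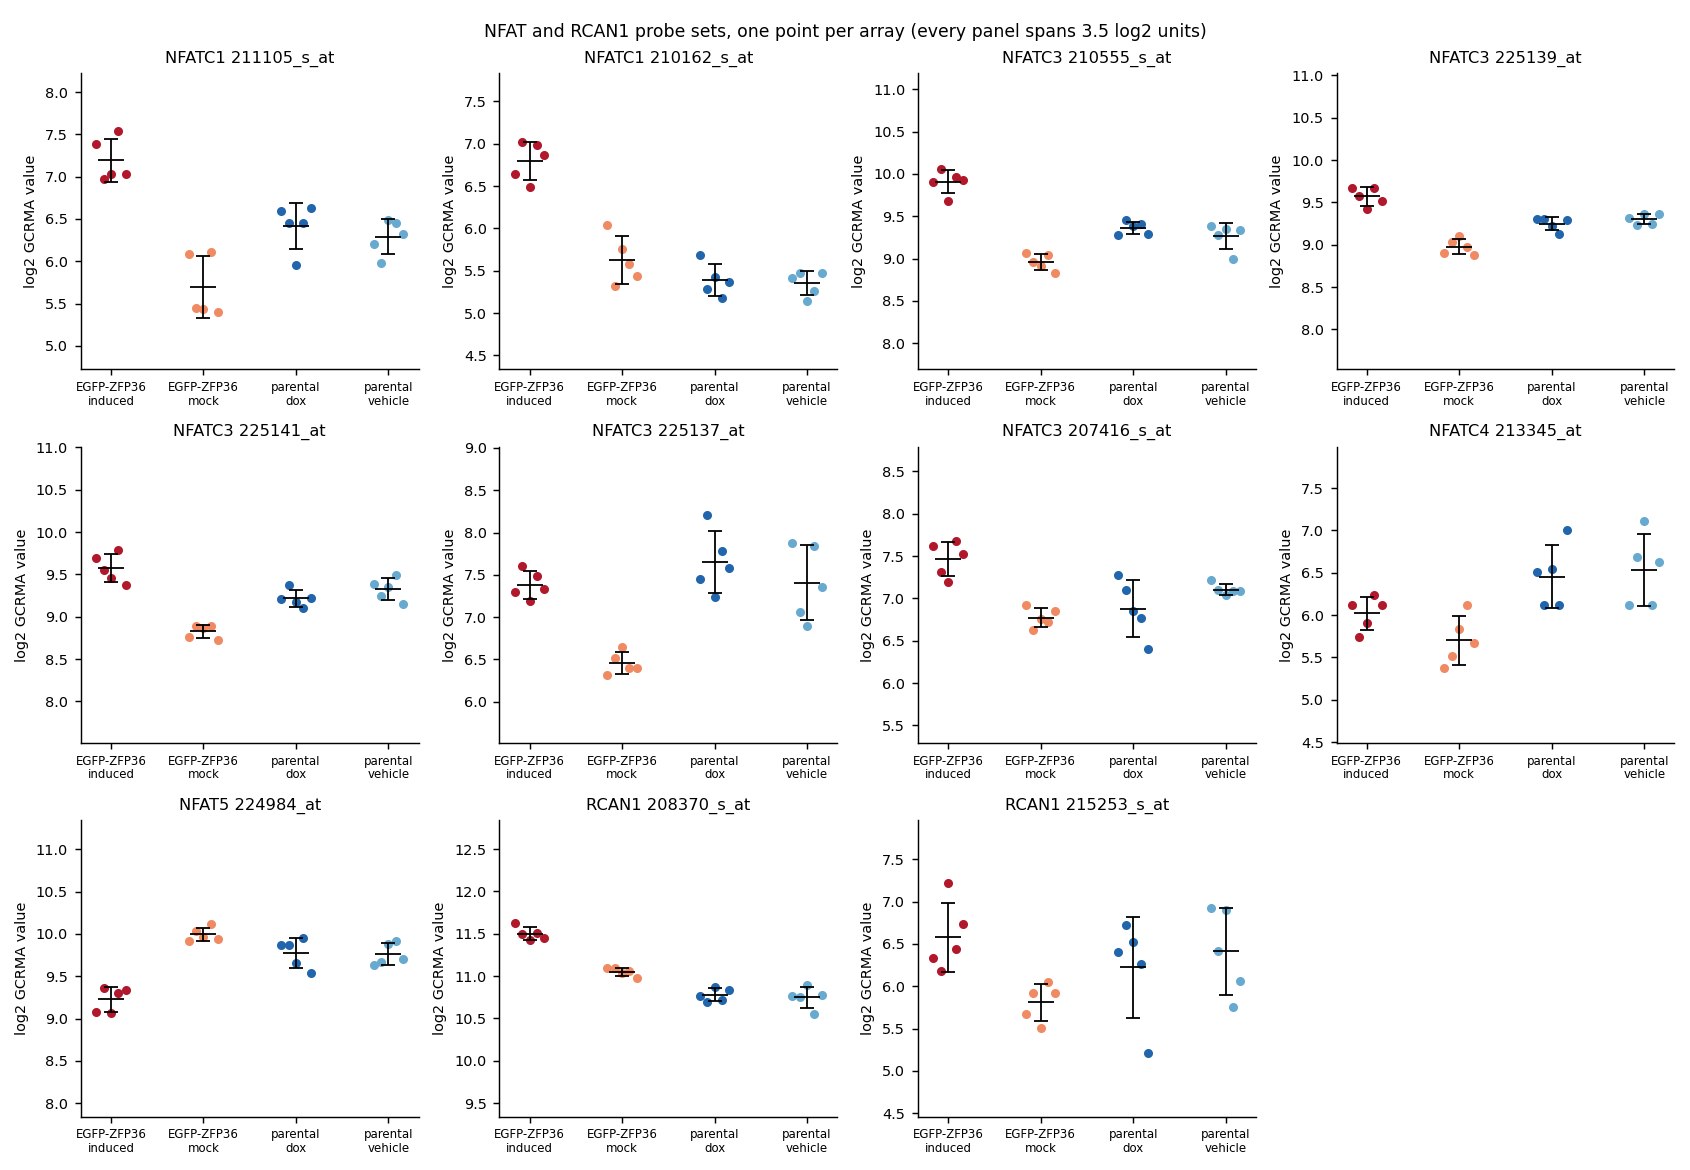
Log2 GCRMA values (y axis) of the 11 tested NFAT and RCAN1 probe sets in the 4 groups (x axis); points are arrays, bars are mean ± SD (n = 5), and every panel spans the same range. Induced arrays lie above mock-induced arrays without overlap for NFATC1, NFATC3 and RCAN1, under them for NFAT5, and among them for NFATC4.

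Doxycycline itself was tested in parental cells. None of the 19 probe sets passed there: 0 members passed the Bonferroni threshold, 0 had an unadjusted p under 0.05 in limma, and 0 in the unmoderated fit with a separate spread per group passed the Bonferroni threshold. Of all tested probe sets, 0% passed the Bonferroni threshold and 2.22% had an unadjusted p under 0.05. The differences ran from −0.23 (NFATC3 207416_s_at) to 0.27 (PPP3R1 204507_s_at). For PPP3CA the 95% intervals were −0.10 to 0.15 and −0.12 to 0.07, well inside the differences seen in the EGFP-ZFP36 line. They were wider for RCAN1 215253_s_at, −0.89 to 0.51, and for NFATC3 225137_at, −0.27 to 0.76.

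The interaction over all 20 arrays tested whether doxycycline made the same difference in both lines. It passed for 8 of the 19 probe sets, 5 of them lower and the remaining 3 higher for the EGFP-ZFP36 line, against 20.6% lower and 19.1% higher over all probe sets. The calcineurin probe sets were those that fell after induction: PPP3CA (−1.91 and −2.22), PPP3CB (−0.84 and −2.47) and PPP3R1 204507_s_at (−1.65). The remaining 3 were NFATC3 210555_s_at (0.85), 225139_at (0.65) and 225141_at (0.86), with limma adjusted p of 0.00517, 0.00748 and 0.00758. The 3 NFATC3 calls were lost with either centring (adjusted p = 1) and with separate spreads (0.0569, 0.0151 and 0.0928), and PPP3CB 202432_at with hybridization centring (−1.04, adjusted p = 0.0150) and poly-A centring (−0.85, adjusted p = 1). PPP3R1 was lost with poly-A centring (−1.66, adjusted p = 0.156) and separate spreads (adjusted p = 0.299). At a Benjamini-Hochberg adjusted p under 0.05 the count was 18, where 77.6% of all probe sets passed. With 1 array left out the count was 5 to 7, and 5 without any of 13 arrays: induced replicates 1, 2 and 4, mock-induced replicates 2, 4 and 5, parental doxycycline replicates 1, 3, 4 and 5, and parental vehicle replicates 1, 2 and 3.

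The uninduced line already differed from its parental cells in some members. Per the study's methods, parental cells were diluted less and grown for fewer days before treatment than EGFP-ZFP36 cells. Line and culture therefore differ together in this comparison and cannot be told apart. In mock-induced against parental vehicle cells, 3 of the 19 probe sets passed, all higher, where 10.2% of all tested probe sets were higher and 6.88% lower. PPP3CC passed on both of its tested probe sets. On 32541_at the mock-induced arrays read 8.55, 8.58, 8.76, 8.64 and 8.85, against 7.44, 7.43, 7.35, 7.24 and 7.64 in parental vehicle arrays, a difference of 1.26 (SE 0.08, limma, adjusted p = 0.000456), or 2.39-fold. On 207000_s_at the difference was 1.43 (SE 0.12, limma, adjusted p = 0.00556). That call held in 1 of 10 fits with an array left out, with values of 1.38 to 1.52 and an adjusted p of up to 0.0409, and it held only without mock-induced replicate 5. PPP3CB 202432_at was higher by 0.70 (SE 0.04, limma, adjusted p = 0.000112), while 209817_at differed by 0.02. With hybridization centring only 207000_s_at passed, with separate spreads only 202432_at did, and with poly-A centring none of the 3 passed, at 0.66 for PPP3CB, 1.22 for 32541_at and 1.39 for 207000_s_at. The parental vehicle arrays spread more widely in these controls (7.68 to 9.22) than the mock-induced arrays (8.24 to 8.65). All 5 NFATC3 probe sets had lower means in mock-induced cells, by −0.31 to −0.95, and none passed. At a Benjamini-Hochberg adjusted p under 0.05 there were 15 members, with 70.7% of all probe sets.

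**Figure D3:**
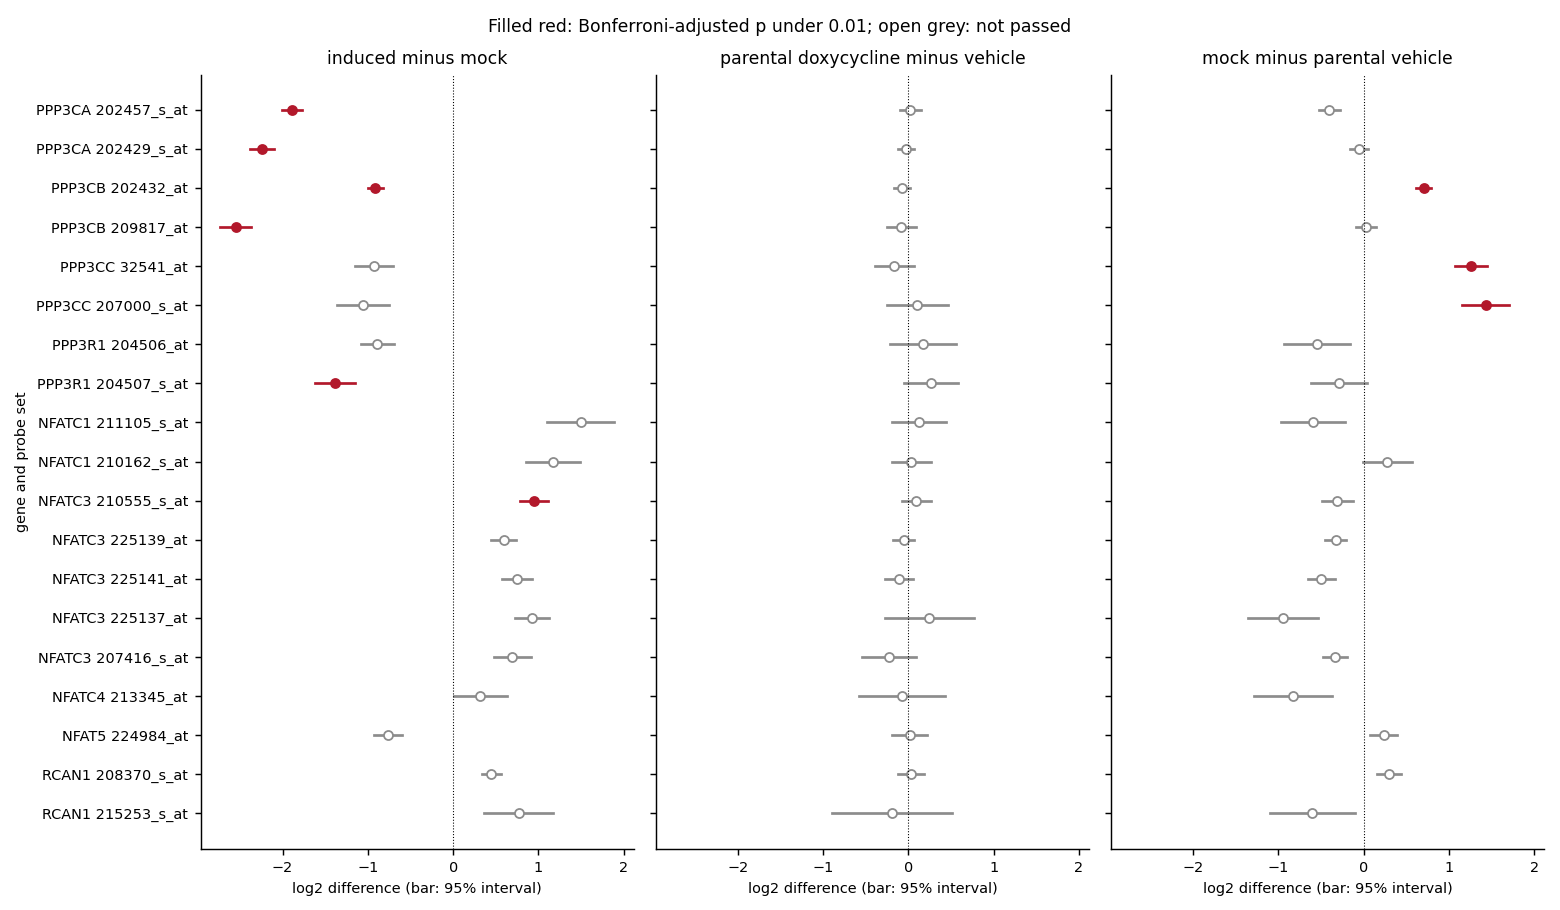
Log2 difference (x axis) of the 19 tested probe sets (y axis) for induced minus mock-induced, parental doxycycline minus vehicle, and mock-induced minus parental vehicle cells; points are means over 5 against 5 arrays with 95% intervals from limma, filled red where the Bonferroni-adjusted p was under 0.01. In parental cells every point lies within −0.23 to 0.27, while calcineurin points reach −2.55 after induction.

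Probe sets of 1 gene did not always give the same difference. For the 6 members with exactly 2 tested probe sets, the difference between them was taken within each array and compared between groups with a two-sided exact permutation test. This gave 12 tests, whose smallest possible p is 0.00794. For PPP3CB, 202432_at exceeded 209817_at by 2.21 to 2.63 in induced, 0.76 to 0.93 in mock-induced and 0.02 to 0.29 in parental vehicle arrays. These 3 ranges do not overlap, and the change was 1.64 between induced and mock-induced cells and 0.68 between mock-induced and parental vehicle cells (exact p = 0.00794 and Benjamini-Hochberg adjusted p = 0.0190 for each). For PPP3CA the change was 0.35 between induced and mock-induced cells and −0.35 between mock-induced and parental vehicle cells (adjusted exact p = 0.0190 each). For PPP3R1 it was 0.49 and −0.25 (adjusted exact p = 0.0408 and 0.131), and for PPP3CC 0.13 and −0.17 (adjusted exact p = 0.532 and 0.338). NFATC1 and RCAN1 differed between mock-induced and parental vehicle cells (−0.87 and 0.90, adjusted exact p = 0.0317 and 0.0190), and for induced against mock-induced cells gave 0.32 and −0.32 (adjusted exact p = 0.190 and 0.276). No source used here says which part of the transcript, or which isoform, each probe set reads.

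The genes around the pathway were read by the brightest probe set of each gene, in lists written from textbook knowledge, against 21.5% of all 10838 tested genes lower and 26.5% higher in induced cells and a median of 0.20. Of 7 NFAT kinases, 2 fell, 2 rose and 3 did not pass (median 0.09). GSK3B, which phosphorylates NFAT for export, fell to 8.55 ± 0.12 in induced cells, against 9.86 ± 0.09 in mock-induced cells (−1.30, limma, adjusted p = 3.37e-05). Its other tested probe sets ran from −1.54 to −0.25. DYRK2 fell by 1.66 (limma, adjusted p = 6.48e-05), but its other tested probe sets ran from −1.56 to 0.76. DYRK1A, which primes NFAT for GSK3, rose by 0.72 (limma, adjusted p = 0.00205), and mock-induced cells already exceeded parental vehicle cells there (0.80). CSNK1E did not pass, with means of 8.49 (induced) and 8.01 (mock-induced; 0.48, limma, adjusted p = 1). The fourth that passed was CSNK1D (0.65), named after its values were seen. Of these genes with a printed 3′ UTR site, GSK3B fell, DYRK1A rose and CSNK1E did not pass.

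Among 6 tested regulators, anchors and immunophilins of calcineurin, 1 fell, 3 rose and 2 did not pass (median 0.48). FKBP1A, the protein through which FK506 inhibits calcineurin, fell to 8.50 ± 0.09 in induced cells, against 10.91 ± 0.13 in mock-induced cells (−2.41, limma, adjusted p = 7.22e-08). Its other tested probe sets gave −2.62 to −0.44. CABIN1, an inhibitor of calcineurin, rose to 8.34 ± 0.15 in induced cells, against 7.13 ± 0.06 in mock-induced cells (1.21, limma, adjusted p = 0.000112). RCAN2, a relative of RCAN1, averaged 4.85 after induction and 2.83 in mock-induced cells (2.03, limma, adjusted p = 0.00173). It passed the filter only through the induced group, so that only 2 of the 3 that rose were above the filter elsewhere. The remaining one, CHP1 (0.67), was named after its values were seen. The calmodulin genes had no probe set naming them alone.

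Of 10 genes of calcium entry and release, 1 fell, 2 rose and 7 did not pass (median 0.35). ORAI1 and ORAI2, pore proteins of store-operated calcium channels, rose by 1.91 and 2.17 (limma, adjusted p = 2.10e-07 and 1.87e-06). For ORAI2, mock-induced cells also exceeded parental vehicle cells, by 2.08. ITPR2, a calcium release channel of the endoplasmic reticulum, fell by 1.67 (limma, adjusted p = 0.00169). STIM1, the calcium sensor of the endoplasmic reticulum, did not pass (5.19 in induced and 4.70 in mock-induced cells).

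Among 7 shuttling and partner factors, 2 fell, 0 rose and 5 did not pass (median 0.04). MEF2A, a calcineurin-responsive transcription factor, fell by 1.59 (limma, adjusted p = 4.96e-07), while its other tested probe sets ran from −1.26 to 0.0012. HOMER2, a scaffold that competes with calcineurin for NFAT, fell by 1.31 (limma, adjusted p = 0.000977), whereas its other tested probe set differed by 1.17 the other way. MEF2C, with the site printed above, did not pass, with means of 8.24 (induced) and 8.83 (mock-induced; −0.59, limma, adjusted p = 0.0212). Of 4 tested genes of the NFAT5 salt response, 2 fell, 0 rose and 2 did not pass (median −0.86). HSPA4L, a heat shock protein gene, fell by 2.18 (limma, adjusted p = 7.20e-06), and its other tested probe set differed by −0.78. The taurine transporter gene SLC6A6 fell by 1.30 (limma, adjusted p = 0.00101). SLC5A3, the myo-inositol transporter, did not pass on its brightest probe set (induced mean 10.59, mock-induced mean 11.00, difference −0.42), and its other tested probe set differed by −1.78. PNPLA6 went the other way, by 1.59, and did not pass (limma, adjusted p = 0.0177). Its mean was 4.53 in induced cells and 2.95 to 4.18 in the other groups, so it passed the filter only through the induced group. HSPA1B, whose site is printed above, had no probe set naming it alone. Of the 10 NFAT target genes of activated lymphocytes with a probe set, such as IL2 and TNF, none was above the filter in any group, and the highest group mean among them was 3.92 (PTGS2 in induced cells). Of the 6 tested embryonic kidney and HEK293 markers, 2 fell (WT1 by 1.46 and EYA1 by 1.06), 2 rose (NEFL and PAX2) and 2 did not pass (median 0.41). NEFL, named after its values were seen, rose by 0.63 (limma, adjusted p = 0.00581), but its other tested probe set differed by −0.96. PAX2, a kidney transcription factor, averaged 4.86 after induction and 2.77 in mock-induced cells (limma, adjusted p = 0.00290). Its means in the other 3 groups were all under 4.5, so it entered the test only through the group in which it is high.

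**Figure D4:**
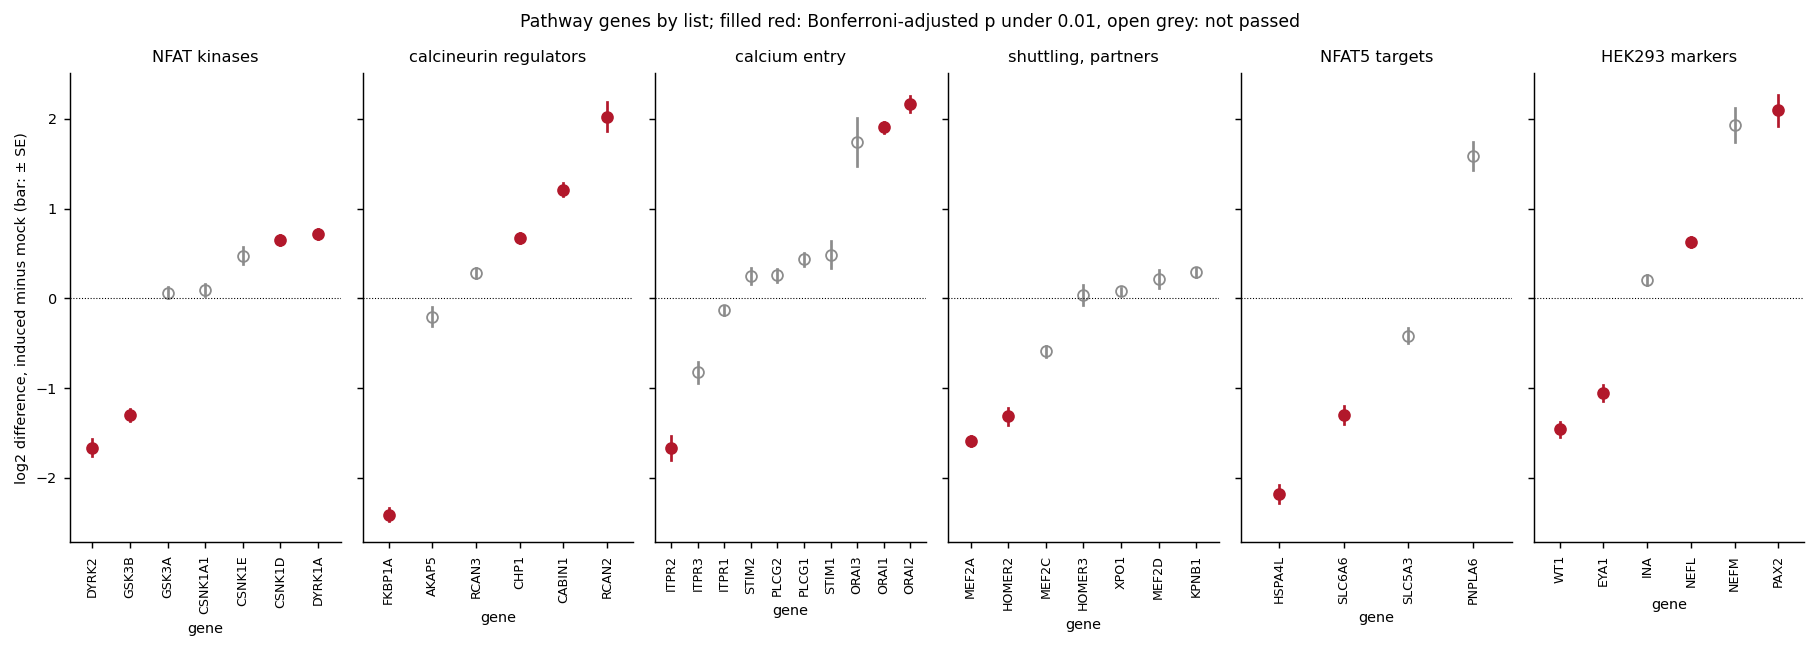
Log2 difference, induced minus mock-induced cells (y axis, ± SE, n = 5 arrays each), of the tested genes (x axis) in 6 lists; filled red marks genes called at the Bonferroni threshold. Each list of kinases, regulators and calcium channel genes holds genes that fell and genes that rose.

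The genes whose levels ran closest to 3 of the members over the 20 arrays were found by Pearson's r among 10837 other genes. For PPP3CA they were DDX5, SETD7 and MAPRE1 (r = 0.997 each), for RCAN1 RER1, DMKN and RTF2 (0.989 each), and for NFAT5 PHTF2 (0.953), TMEM30A (0.953) and PHF3 (0.950). The arrays fall into the 4 groups, so each r mostly restates the group means. DDX5, SETD7 and MAPRE1 differed by −2.74, −2.63 and −1.90 between induced and mock-induced cells, the direction of PPP3CA.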

How the data were processed

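Gene expression was measured on 20 arrays (4 groups of 5, from the sample labels). The deposited log2 values come from GCRMA, run by the authors in a version that no source used here names. They range from 2.19, the lowest value on every array, to 16.6. Gene names come from the platform annotation: of 50441, 38070 name 1 gene, and all 10 members were found in the RefSeq gene table (GRCh38.p14). The 18639 whose mean exceeded 4.5 in any group entered limma 3.58.1 (lmFit and eBayes, R 4.3.3), separately for each pair of groups, and for all 20 arrays in the interaction. Calls use a Bonferroni-adjusted p under 0.01, after the study's filter and threshold; the study's test is not named. Intervals are 95%, and the number of arrays limits their precision. No 2 arrays shared more than 1.60% of their values above 5. Differences between 2 probe sets of a gene were tested by exact permutation (scipy 1.17.1, Python 3.11.15). Site sequences were read from part of the study's table of crosslinking sites. Named are all member probe sets, up to 3 called genes of each of 8 lists (82 genes) by smallest p, and list genes with a site. The 3 genes closest in pattern to RCAN1, PPP3CA and NFAT5 are named too. Others are marked in the text or are given as levels of marker genes or of genes that did not pass. Members, lists and tests were chosen with earlier results of these data known. The cell experiments were done on separate days, per the study's methods, which do not say on which days the arrays were run. The p-values cover the spread between arrays of a group. The fit was tested on simulated data.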

Additional observations from a re-analysis of the deposited data

Results flagged for a closer look

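The interaction of doxycycline with cell line passed for 8 member probe sets. On the log2 scale, doxycycline minus none in the EGFP-ZFP36 line, less the same in parental cells, was −1.91 and −2.22 for PPP3CA (202457_s_at and 202429_s_at), −0.84 and −2.47 for PPP3CB (202432_at and 209817_at) and −1.65 for PPP3R1 204507_s_at, and 0.85, 0.65 and 0.86 for NFATC3 (210555_s_at, 225139_at and 225141_at). In 2 of 76 sets of 5 arrays (19 probe sets in 4 groups), 1 array stood apart from the others, where chance gives about 5%. PPP3CB 202432_at read 10.23 in induced replicate 5, and 10.30 to 10.32 in the others. NFATC1 211105_s_at read 5.95 in parental doxycycline replicate 3, and 6.45 to 6.63 in the others.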

How the results depend on the processing

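Of the 19 member probe sets, 5 fell after induction in the main fit. With Benjamini-Hochberg adjustment 9 fell, with poly-A centring 9 and with a separate spread per group 3. Over all probe sets these settings gave 8198, 15933, 8206 and 3728 passing either way, in the same order. With a group mean above 6, 7 fell, with all arrays in one model 7 and with hybridization centring 6. Other units had another base: 3 of 8 genes fell as the mean of their probe sets, and 4 of 9 genes by their brightest. Once _s_at and _x_at probe sets were left out, 2 of 9 fell. Of the 19, 1 rose in the main fit, 2 with a group mean above 6 and 9 with Benjamini-Hochberg adjustment. With all arrays in one model 6 rose, and with a separate spread 0. Gene averages gave 2 of 8 genes, and no filter gave 0 of 33 probe sets. Between mock-induced and parental vehicle cells, 3 of the 19 passed in the main fit and 15 with Benjamini-Hochberg adjustment. With hybridization centring 1 passed, with poly-A centring 0 and with a separate spread 1. Over all probe sets these settings gave 3185, 13172, 2437, 1503 and 1137, in the same order. In the interaction, 8 of the 19 passed in the main fit and 18 with Benjamini-Hochberg adjustment. With hybridization centring 4 passed, with poly-A centring 3 and with a separate spread 4. Over all probe sets these settings gave 7402, 14458, 4834, 2608 and 4676, in the same order. Other units had another base: 3 of 9 genes passed by their brightest probe set and 5 of 8 genes as averages. Without _s_at and _x_at probe sets, 4 of 9 passed. Of all 10838 genes, 5193 passed by their brightest probe set. Without 1 array, 4 to 5 fell, 0 to 1 rose, 2 to 3 passed between mock-induced and parental vehicle cells, and 5 to 7 in the interaction. Without a filter 4 of 33 fell, and the count for doxycycline in parental cells was 0 in every fit. Directions turned for NFATC4 after induction (−0.042 with poly-A centring) and for PPP3CB 209817_at between mock-induced and parental vehicle cells (−0.066 with hybridization centring, −0.016 with poly-A centring, and −0.0031 to 0.050 without 1 array, negative without parental vehicle replicate 3). The causes were not tested.

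The study's methods describe pairs of treated and untreated cells, but neither they nor the labels say that a replicate number marks such a pair, so the numbers were not taken to pair the arrays. Same-numbered deviations correlated by 0.01 to 0.21 between induced and mock-induced arrays, −0.19 to 0.38 between parental arrays and −0.07 to 0.13 between mock-induced and parental vehicle arrays, and not every array correlated best with its own number. With the replicate number as a block, 4 of the 19 members fell, 1 rose, 0 passed between mock-induced and parental vehicle cells, and 4 in the interaction. Over all probe sets, 4352 then passed either way after induction, 921 between mock-induced and parental vehicle cells, and 5405 in the interaction. After induction PPP3R1 204507_s_at (adjusted p = 0.294) and NFATC3 210555_s_at (0.0823) then did not pass, and the 1 that rose was NFATC1 211105_s_at (0.00291). In the interaction PPP3R1 and the 3 NFATC3 probe sets did not pass.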
